A study of Mus musculus with 12 samples.

Results

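The genes studied here are those of the Ppp family of serine/threonine protein phosphatases, read in maps of where meiotic recombination starts in the mouse testis. They were chosen by name: every protein-coding gene of the RefSeq annotation of GRCm38 whose symbol starts with Ppp and a digit, which gave 77 of 21627 genes. Of these, 12 are catalytic by symbol (a c after the digit) and 65 are regulatory (an r after the digit). The 11 Ppp symbols that are not protein-coding were left out. The members lie on 20 chromosomes, and 1 of them, Ppp1r3f, is on X.

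The tested mice were adult males carrying the Ankrd31 tm1Atot allele, and they were set against adult males of strain C57BL/6JCrl. ANKRD31 belongs to the machinery that makes meiotic double-strand breaks, and the labels do not give the background of the mutant line or its zygosity beyond the term KO. Whole testis was the tissue of both groups, and both were treated with the same goat antibody against DMC1, the recombinase that coats the single-stranded DNA at a break. The single-stranded DNA was sequenced (DMC1-SSDS), so each enriched interval is a hotspot of recombination initiation. Each genotype has 2 samples but only 1 deposited list. Values below therefore have no replicate error, and differences between genotypes have no test. Intervals cover counting error only, except that of a median log2 ratio, which rests on the spread over hotspots. The 8 samples of H3K4me3 and input from mice of 13 days were not used here. The assay reads DNA and not expression, so the tissue label could not be checked against marker genes, and the loss of Ankrd31 itself is not measured.

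The knockout list held 22034 hotspots with 4203380 reads, and the wild type list held 13480 hotspots with 4376692 reads. Strength is the read number of a hotspot after subtraction of the background. The weakest listed hotspot had a strength of 16 in the knockout and 18 in the wild type, and the median was 105 in the knockout and 152 in the wild type. A place without a hotspot may lie below these limits and is not shown to be free of breaks. Hotspots of the lists that overlapped by at least 1 bp were called shared, and the others knockout-only or wild-type-only.

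Phosphatases of the PPP family remove phosphate from serine and threonine. A small number of catalytic subunits is directed to substrates by many regulatory subunits: PP1 works through a large set of targeting and inhibitory proteins, PP2A through a scaffold and exchangeable B subunits, and calcineurin (the Ppp3 genes) through a calcium-binding subunit. In germ cells PP2A with a B56 subunit and shugoshin protects centromeric cohesin in meiosis I. Loss of Ppp1cc makes male mice sterile, and the calcineurin made of Ppp3cc and Ppp3r2 is needed for sperm motility. In the mouse, PRDM9 normally directs breaks away from promoters, and in mice without PRDM9 breaks form largely at promoters and other sites of H3K4me3.

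Promoter sequence comes first, because the hotspots described next sit on it. RefSeq promoters of build GRCm38.p6, each running from 250 bases before to 50 bases after an annotated start, were found for 61 of the 77 genes. Of the 74 promoters of these genes, 34 had a knockout hotspot centred within 1 kb of their start, and all 34 lay wholly inside a knockout hotspot. The promoters printed here, 5′ to 3′ on the strand of the gene with each CpG in capitals, are the strongest autosomal and the strongest catalytic example with a knockout hotspot, the single X-linked gene, and 2 genes without one. Ppp6r2 (chr15:89211309-89211608, + strand, 47 CpG) encodes a subunit that directs PP6. Ppp1cb (chr5:32458720-32459019, + strand, 31 CpG) encodes a PP1 catalytic subunit. Ppp1r3f (chrX:7574232-7574531, - strand, 29 CpG) encodes a subunit of the glycogen-targeting group. Ppp2ca (chr11:52098574-52098873, + strand, 34 CpG) encodes the main PP2A catalytic subunit and had no knockout hotspot at its start. Ppp1r3a (chr6:14755225-14755524, - strand, 2 CpG) encodes the glycogen-targeting subunit of muscle and also had none.
Ppp6r2: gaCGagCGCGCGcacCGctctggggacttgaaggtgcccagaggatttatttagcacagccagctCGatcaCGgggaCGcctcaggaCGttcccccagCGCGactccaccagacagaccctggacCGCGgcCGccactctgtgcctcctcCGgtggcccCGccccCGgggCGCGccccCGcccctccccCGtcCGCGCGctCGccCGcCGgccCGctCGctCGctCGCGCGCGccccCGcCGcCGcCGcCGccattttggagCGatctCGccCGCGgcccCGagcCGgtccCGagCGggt
Ppp1cb: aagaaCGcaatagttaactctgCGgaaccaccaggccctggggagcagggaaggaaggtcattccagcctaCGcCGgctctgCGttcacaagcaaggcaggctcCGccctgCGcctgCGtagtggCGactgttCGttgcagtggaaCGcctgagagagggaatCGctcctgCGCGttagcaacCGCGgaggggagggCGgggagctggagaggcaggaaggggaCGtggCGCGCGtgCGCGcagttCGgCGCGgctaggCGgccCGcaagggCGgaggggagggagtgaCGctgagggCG
Ppp1r3f: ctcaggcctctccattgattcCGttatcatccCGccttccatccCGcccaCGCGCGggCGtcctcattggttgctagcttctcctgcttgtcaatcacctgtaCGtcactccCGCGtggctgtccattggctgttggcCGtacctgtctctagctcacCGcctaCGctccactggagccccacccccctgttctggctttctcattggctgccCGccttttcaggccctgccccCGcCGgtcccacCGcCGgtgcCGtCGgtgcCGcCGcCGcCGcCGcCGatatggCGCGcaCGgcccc
Ppp2ca: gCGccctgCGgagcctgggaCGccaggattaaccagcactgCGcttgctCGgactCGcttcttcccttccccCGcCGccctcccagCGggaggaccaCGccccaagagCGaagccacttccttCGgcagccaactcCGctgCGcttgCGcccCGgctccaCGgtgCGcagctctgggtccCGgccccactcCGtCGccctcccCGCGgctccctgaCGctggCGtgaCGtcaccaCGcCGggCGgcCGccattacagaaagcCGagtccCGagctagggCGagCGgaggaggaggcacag
Ppp1r3a: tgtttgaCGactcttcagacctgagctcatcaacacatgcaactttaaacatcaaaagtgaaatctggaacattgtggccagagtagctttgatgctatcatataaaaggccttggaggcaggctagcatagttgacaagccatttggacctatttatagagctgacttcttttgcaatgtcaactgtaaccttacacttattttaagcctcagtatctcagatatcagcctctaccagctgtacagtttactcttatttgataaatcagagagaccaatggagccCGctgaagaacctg

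A knockout hotspot was centred within 1 kb of an end of 35 of the 77 Ppp genes (45.5%, exact 95% binomial interval 34.1 to 57.2), while 1 had a wild type hotspot there (1.30%, 0.0329 to 7.02). Over all protein-coding genes the shares were 27.1% for the knockout list and 1.99% for the wild type list. Knockout hotspots at member ends were therefore above the share of all genes by count, and wild type ones were not. A knockout-only hotspot lay at an end of 34 members (44.2%), beside 25.5% of all protein-coding genes. Of the hotspots themselves, 34 of the 35 at member ends (97.1%) and 93.0% of the 5290 at ends of all protein-coding genes were knockout-only, so these shares were near each other. With the knockout list cut to the length of the wild type list by strength, 26 members (33.8%) had one, against 16.0% of all protein-coding genes. With each list reduced to its 6740 strongest hotspots, 7 members (9.09%) had one, against 6.16% of all protein-coding genes. No member had a wild-type-only hotspot at an end, beside 0.296% of all protein-coding genes.

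Catalytic and regulatory genes gave shares whose intervals overlapped. A knockout hotspot lay at an end of 6 of 12 catalytic genes (interval 21.1 to 78.9%) and of 29 of 65 regulatory genes (44.6%, 32.3 to 57.5). The share of all protein-coding genes was 27.1%. Wild type hotspots were found at the ends of 0 of 12 catalytic genes (upper bound 26.5%) and of 1 of 65 regulatory genes (1.54%, 0.0389 to 8.28), beside 1.99% of all protein-coding genes. With 12 genes in a class the interval is too broad to say whether the classes differ or are alike, and genes are not replicates, so no test was made. The median strength of the knockout hotspots was 94.5 at catalytic ends and 127 at regulatory ends. Among genes of 10 to 50 kb the knockout counts were 5 of 7 catalytic and 13 of 30 regulatory, beside 31.0% of all protein-coding genes of that length. Above 50 kb they were 0 of 2 catalytic and 13 of 18 regulatory, beside 37.4% of all such genes. Below 10 kb they were 1 of 3 and 3 of 17, beside 15.9%.

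**Figure D1:**
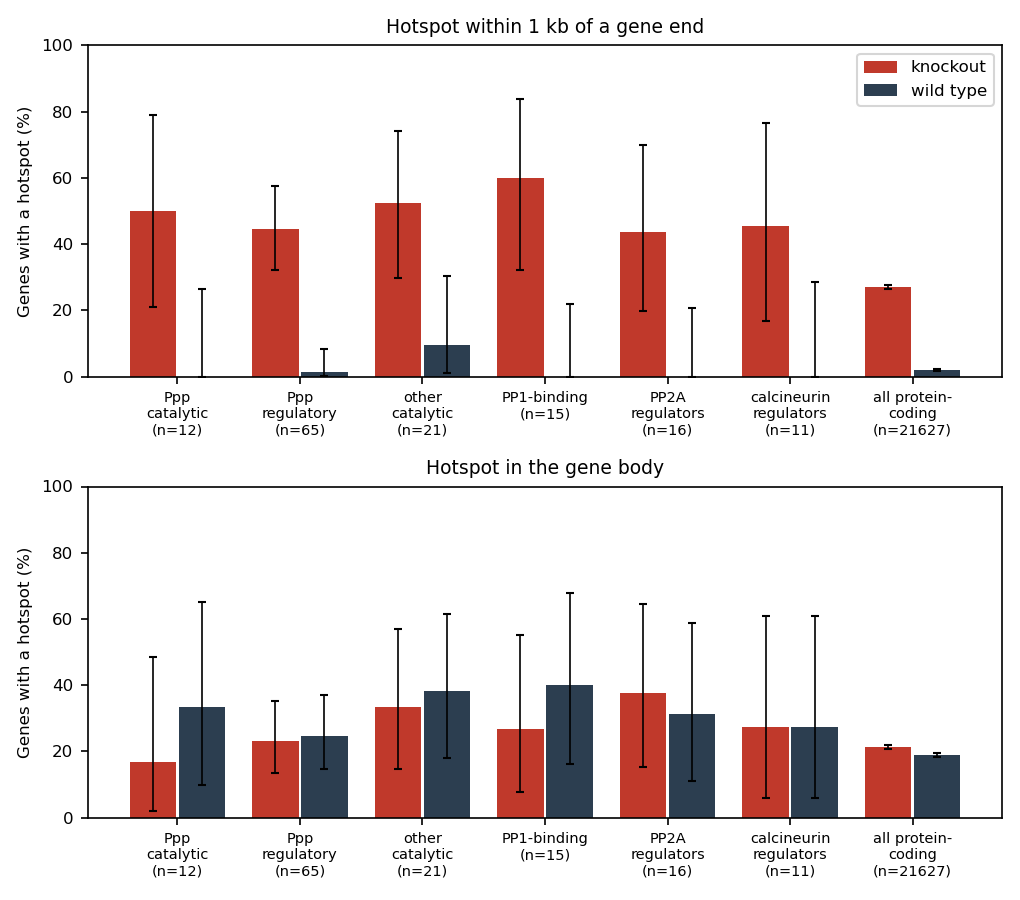
Percent of genes with a hotspot (y axis) within 1 kb of a gene end (top) and in the gene body over 1 kb from both ends (bottom), for the Ppp classes, for lists of other phosphatase genes and for all protein-coding genes; bars are knockout and wild type, lines are exact 95% binomial intervals. At gene ends the knockout bar stands for 6 of 12 catalytic genes and is at 44.6% for regulatory genes, beside 27.1% for all genes, and wild type bars are at or below 9.52%.

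Among the catalytic genes, Ppp1cb had the strongest hotspot at an end. It was a knockout-only hotspot at chr5:32458289-32460067 with a strength of 195 (217 reads, Poisson interval 189 to 248). Ppp1ca, the alpha subunit of PP1, had 125 at a hotspot that also lies within 1 kb of an end of Tbc1d10c. Ppp1cc is counted among genes without an end hotspot, because its annotated gene reaches further out than its promoter. Its knockout hotspot at chr5:122157120-122159134, with a strength of 81, was centred 148 bp before the annotated start. Ppp1ccb, a further gene named as PP1 catalytic, had no hotspot in either list.

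For the other phosphatases, the catalytic genes were split. Ppp3cb, the beta catalytic subunit of calcineurin, had a knockout hotspot of 130 at its start, while Ppp3ca (alpha) and Ppp3cc (the testis-enriched gamma form) had none at an end. Ppp5c, which encodes PP5, had 64, and Ppp6c, which encodes PP6, had 56. Of the PP2A pair, Ppp2cb had a weak knockout hotspot of 51 (51 reads, 38 to 67) listed at an end. Ppp2ca had none listed, which does not show that its ends are free of breaks. Ppp4c, which encodes PP4, had no hotspot in either list. No catalytic gene had a wild type hotspot at an end.

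PP6 and PP5 had a knockout hotspot at an end of every gene, PP5 through its single gene Ppp5c. For PP6 these were 4 of 4 genes: Ppp6c, and the regulatory genes Ppp6r2 (308), Ppp6r3 (122) and Ppp6r1 (88). For PP4 the regulatory genes had them in 4 of 5 cases: Ppp4r4 (179), Ppp4r2 (154), Ppp4r3b (102) and Ppp4r3a (99), whereas Ppp4r1 had none at an end. For PP2A the count was 8 of 16 genes, for PP1 16 of 45 (35.6%) and for calcineurin 2 of 5. Over all protein-coding genes the share was 27.1%. Genes are not replicates, so no family was tested against that share. The interval of the PP6 share runs from 39.8 to 100%, and that of PP1 from 21.9 to 51.2%, so neither these nor the smaller families can be ranked.

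Within PP2A, paralogous genes parted. Of the scaffold pair, Ppp2r1b had a knockout hotspot of 181 and Ppp2r1a none. Of the B56 genes, whose products bind shugoshin, Ppp2r5e (167), Ppp2r5c (143) and Ppp2r5a (93) had one, and Ppp2r5b and Ppp2r5d had none. Of the B55 genes, Ppp2r2a (72) and Ppp2r2d (56) had one, and Ppp2r2b and Ppp2r2c had none. Of the third B group, Ppp2r3a had one of 124 and Ppp2r3c and Ppp2r3d none. The hotspot of Ppp2r2d also lies at an end of Mapk1ip1. Of the calcineurin B genes, the general form Ppp3r1 had 104 and the testis form Ppp3r2 none. Thus neither gene of sperm calcineurin, Ppp3cc or Ppp3r2, had a knockout hotspot at an end.

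The strongest knockout hotspot at a member end was that of Ppp1r3f on X. Its strength was 421 (463 reads, 422 to 507), rank 1886 of 22034 in the knockout list, at chrX:7572148-7575472. On X, 47.5% of protein-coding genes had a knockout hotspot at an end, with a median strength of 284 over the 436 hotspots at X-linked ends, so a strong hotspot at an X-linked end is common in this list. Next came Ppp6r2 (308, 333 reads, 298 to 371) on chromosome 15. Further PP1 regulatory genes with knockout hotspots were Ppp1r42 (194), which shares its hotspot with an end of Tcf24, and the myosin-phosphatase subunit gene Ppp1r12a (155). Ppp1r14bl had 155, the neurabin gene Ppp1r9a 137 (also at an end of Gmfg-ps), the glycogen-targeting gene Ppp1r3c 135, Ppp1r21 135 and the ASPP gene Ppp1r13b 127. The 34 autosomal knockout hotspots at member ends had a median strength of 124.5, against 93 for the 4854 autosomal knockout hotspots at ends of all protein-coding genes. In the knockout list 20 of the 35 were above the list median of 105. Their summed strength was 0.120% of that of the whole list, with a covered length of 69.0 kb and a mean strength of 135.

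**Figure D2:**
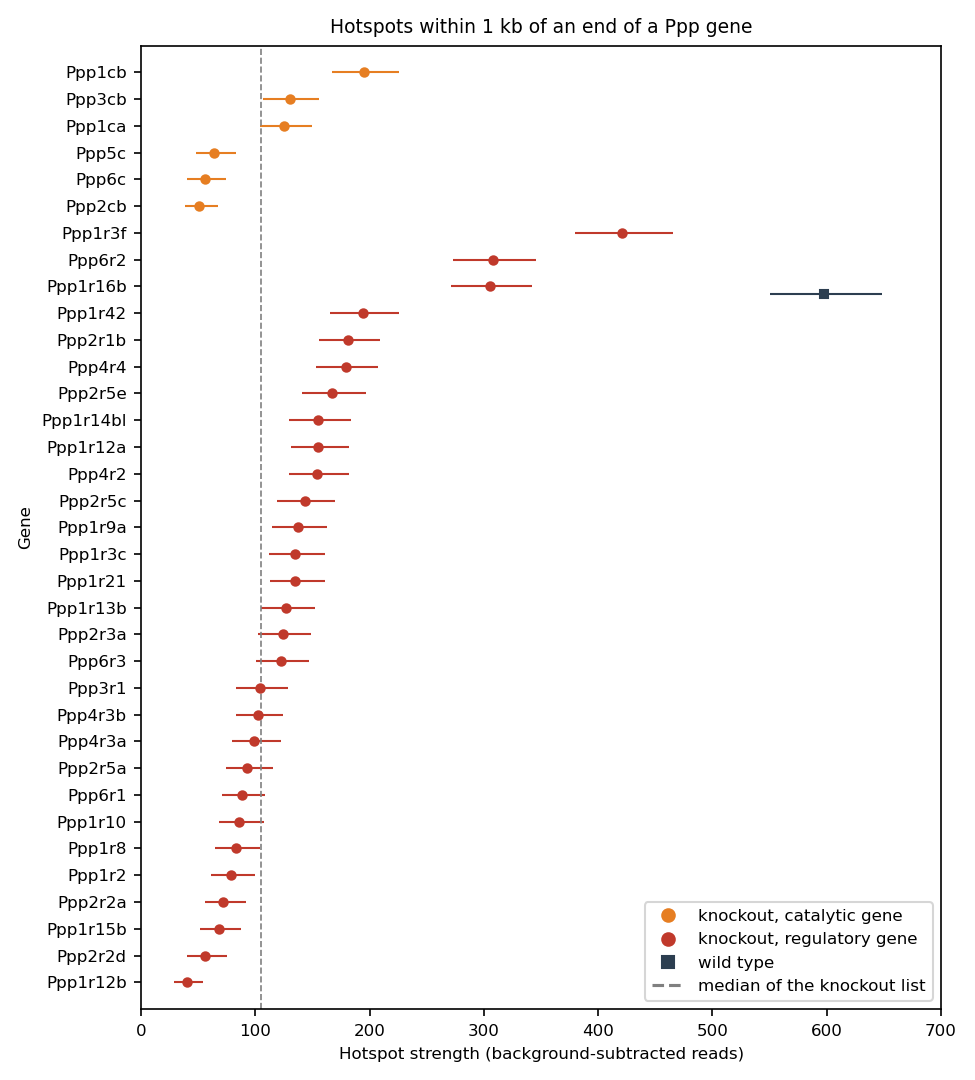
Strength in background-subtracted reads (x axis) of each hotspot within 1 kb of an end of a Ppp gene (y axis, genes by class), with lines for the exact 95% Poisson interval of its reads less the background; circles are knockout (orange catalytic, red regulatory), the square is wild type and the dashed line is the knockout list median. Knockout values run from 40 at Ppp1r12b to 421 at Ppp1r3f, and the only wild type value is 598 at Ppp1r16b.

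Ppp1r16b, which encodes a PP1 targeting subunit of endothelium, was the only member with a hotspot at an end in both genotypes. The strength was 305 in the knockout (315 reads, 281 to 352) and 598 in the wild type (616 reads, 568 to 667). Relative to the median autosomal shared hotspot of each list (151 in the knockout, 182 in the wild type) the log2 ratio of knockout over wild type was -0.70. The hotspot centre lay 616 bp before the nearest annotated start in the knockout and 708 bp before it in the wild type. It thus lay at the outer part of the window, and the knockout hotspots of the other strand-annotated genes lay nearer, apart from that of Ppp2r5c. The hotspot of Ppp1r42, 878 bp from a gene end, was the last inside the window. The first outside it were those of Ppp1r36, at 1450 bp in the knockout (86) and 1449 bp in the wild type (116).

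Strand was known for 29 of the 35 members with a knockout hotspot at an end, and in 29 of 29 the hotspot was nearer to the start than to the far end of the gene. For all protein-coding genes the share was 93.0% of 4852 in the knockout and 39.6% of 326 in the wild type. Counted from annotated starts instead of gene ends, 31 of 61 members (50.8%, 37.7 to 63.9) had a knockout hotspot within 1 kb, beside 28.7% of all genes with a promoter entry. A wild type hotspot was there in 1 of 61 (1.64%, 0.0415 to 8.80), beside 0.903% of all genes. The 31 include Ppp1cc and the myosin-phosphatase gene Ppp1r12c, whose knockout hotspot of 60 was centred 8 bp from an annotated start inside the gene. By class, 5 of 8 catalytic and 26 of 53 regulatory genes had a knockout hotspot at a start. The median distance of the centre from the start was 169 bp for the members and 129 bp for all genes, and 80.6% of the members' and 77.0% of all genes' centres lay within 250 bp. Centres fell on both sides of the start, into the gene in 17 of 31 members (54.8%) and in 56.5% of all genes.

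**Figure D3:**
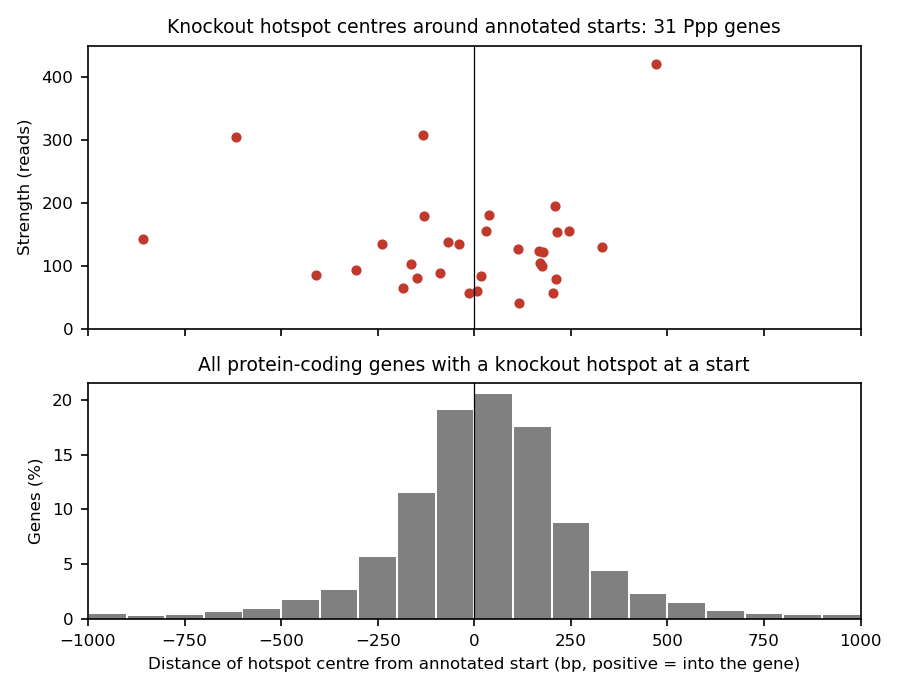
Top: distance of the knockout hotspot centre from the nearest annotated start (x axis, bp, positive into the gene) and hotspot strength in reads (y axis) for 31 Ppp genes. Bottom: the same distance for all protein-coding genes with a knockout hotspot at a start, as percent of genes per bin. The points of the members gather within 250 bp of the start in 25 of 31 genes, and the extremes are -858 bp at Ppp2r5c and 471 bp at Ppp1r3f.

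Promoters of members with a knockout hotspot were richer in CpG. The number of CpG in the 300 bases had a median of 29 (6 to 48) over 34 member promoters with a knockout hotspot and of 16.5 (1 to 48) over 40 without. Over all protein-coding genes the medians were 24 and 7, so the same order holds in the genome at large. Of the member promoters with 15 or more CpG, 30 of 53 (56.6%) had a knockout hotspot, against 46.5% of all protein-coding promoters of that kind. With 5 to 14 CpG the numbers were 4 of 16 (25.0%), against 18.2%, and with 0 to 4 CpG they were 0 of 5, against 2.23%. A CpG-rich promoter did not by itself go with a listed hotspot: 19 genes had a promoter with 15 or more CpG and no knockout hotspot there, among them Ppp2ca, Ppp4c, Ppp2r1a and Ppp1r9b, as the Ppp2ca sequence above shows. The members as a whole had more CpG (median 23) than all promoters (median 13), and the part of this in the share of members with a hotspot was not tested.

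**Figure D4:**
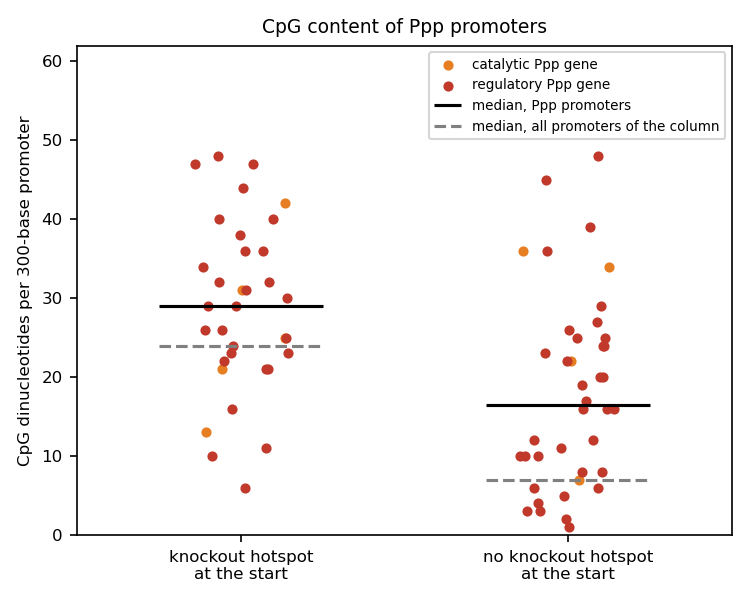
CpG dinucleotides per 300-base RefSeq promoter (y axis) for Ppp promoters with and without a knockout hotspot centred within 1 kb of the start; each point is a promoter (orange catalytic, red regulatory), the solid line is the median of the Ppp promoters and the dashed line that of all protein-coding promoters of the same kind. The Ppp medians are 29 and 16.5, the genome-wide ones 24 and 7, and the point clouds overlap.

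Short motifs were counted on both strands of the same windows. The GC box GGGCGG, the Sp1 type of element, occurred in 28 of 34 member promoters with a knockout hotspot (82.4%) and 21 of 40 without (52.5%), against 74.0% and 36.5% of all protein-coding promoters with and without one and 46.7% of all promoters. The core ATGGCGGC of the YY1 site occurred in 6 of 34 (17.6%) and 3 of 40 (7.50%), against 5.51% and 2.12% of all protein-coding promoters with and without a hotspot and 3.04% of all, and it is present in the Ppp6r2 and the Ppp2ca promoter shown. The CRE TGACGTCA occurred in 3 of 34 and 2 of 40, against 3.57% and 1.77% (2.26% of all), and the Ppp2ca promoter holds one. The 3 include both promoters of Ppp2r2d, which overlap each other, and the 34 promoters belong to 31 genes. For the GC box, YY1 core and CRE the order with and without a hotspot was thus that of all promoters. TATAAA, in 3 of 34 (8.82%) and 5 of 40 (12.5%), against 5.44% and 15.4% (12.7% of all), also kept the genome-wide order. The ETS core CCGGAAG did not: it was in 3 of 34 (8.82%) and 5 of 40 (12.5%), against 923 of 5716 (16.1%) and 1535 of 15328 (11.7% of all). The CCAAT box CCAAT did not keep that order either, in 10 of 34 (29.4%) and 13 of 40 (32.5%), against 39.6% and 38.1% (38.5% of all). The NRF1 core CGCATGCG was in 1 of 34 and 1 of 40, against 4.48% and 1.81% (2.53% of all). Most of these counts are small. These letters may overlap in a promoter and are matches of sequence only.

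Gene bodies showed another picture. A hotspot inside the gene and over 1 kb from both ends was present in 17 members in the knockout (22.1%, 13.4 to 33.0) and in 20 of 77 in the wild type (16.6 to 37.2%), beside 21.3% and 18.9% of all protein-coding genes. These shares are near those of all genes. Per length of gene the members had 7.16 knockout hotspots per Mb (4.72 to 10.4) and 7.96 wild type hotspots per Mb (5.37 to 11.4), beside 7.58 and 6.41 for all protein-coding genes. The class counts were 2 of 12 catalytic and 15 of 65 regulatory genes in the knockout, and 4 of 12 and 16 of 65 in the wild type. The catalytic counts in the knockout include the hotspot at the inner start of Ppp1cc, and the regulatory ones that of Ppp1r12c.

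Of the 3 calcineurin catalytic genes, Ppp3cc had a body hotspot in the knockout (175), while Ppp3cc (649), Ppp3cb (136) and Ppp3ca (70) had one in the wild type. Ppp2ca had a weak wild type hotspot of 29 in its body. The members with the most body hotspots were long genes. Ppp2r2b, a brain-rich B55 gene, had 4 in the knockout and 3 in the wild type, and Ppp1r12b, a myosin-phosphatase gene of muscle, had 3 in each. Ppp1r9a had 3 and 2, and Ppp2r5c, Ppp2r5e and Ppp4r1 had 2 in each list.

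Of the 27 knockout body hotspots of the members 21 were shared (77.8%) and 6 knockout-only. Of the 30 wild type body hotspots 21 were shared (70.0%) and 9 wild-type-only. In bodies of all protein-coding genes, 2445 of 7844 knockout hotspots were knockout-only and 1222 of 6639 wild type hotspots wild-type-only. Over the whole lists, 52.1% of knockout and 85.2% of wild type hotspots were shared. Among the members, the knockout-only ones had strengths of 40 to 81 (median 52), and the wild-type-only ones 29 to 184 (median 98). The knockout-only ones include those at annotated starts inside Ppp1cc (81) and Ppp1r12c (60). The strongest wild-type-only body hotspots were in Ppp1r7 (184), Ppp1r21 (161) and Ppp3cb (136). A knockout hotspot at an end was present in 13 of the 20 members with a wild type body hotspot (65.0%) and in 22 of the 57 without (38.6%). Over all protein-coding genes these shares were 36.9% and 24.8%, in the same order. Both kinds of hotspot were more frequent in long genes: of the 20 members over 50 kb, 13 had the one and 13 the other. Among all protein-coding genes over 50 kb, 37.4% had a knockout hotspot at an end and 55.6% a wild type body hotspot. In Ppp6r2 the wild-type-only hotspot of 98 lay 2518 bp inside the start, next to the knockout-only hotspot of 308 on the promoter. In Ppp4r3b a wild-type-only hotspot of 93 lay 5206 bp inside the start, whose knockout-only hotspot had 102. These positions were picked after their values were seen.

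The 22 shared hotspots of the members, 21 in bodies and that of Ppp1r16b, were mostly weaker in the knockout. The median log2 ratio of relative strength was -0.66 (exact binomial interval of the median -1.11 to -0.42), and 20 of 22 were lower. This interval comes from the spread of the 22 hotspots, taken as independent although several lie in the same gene. It is not replicate error and no test against other hotspots. Over all 11487 shared hotspots the median was -0.01, and over the 5399 shared hotspots in bodies of protein-coding genes it was -0.32, with 62.3% lower. Over 2-fold lower were 6 of the 22 (27.3%), beside 15.8% of all shared hotspots and 25.3% of those in gene bodies, and over 2-fold higher was 1 (4.55%), beside 13.2% and 7.35%. On strength as deposited the median of the members was -0.93 and that of all shared hotspots -0.28, and 21 of 22 were lower. Among the strongest hotspots of both lists the median of the members was -0.38 over 10 hotspots.

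The largest decrease was in Ppp2r5e, a B56 gene on chromosome 12. Its body hotspot at chr12:75499157-75500903 had 142 in the knockout and 761 in the wild type (log2 ratio -2.15, read-count interval -2.27 to -1.77). Ppp4r2, a PP4 regulatory gene, had 259 in the knockout and 1145 in the wild type (-1.87, -1.97 to -1.59), the strongest wild type body hotspot of the members. Ppp3cc had 175 in the knockout and 649 in the wild type (-1.62, -1.80 to -1.32). At their ends, Ppp2r5e and Ppp4r2 had knockout-only hotspots of 167 and 154, while Ppp3cc had none.

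At the other end of the range, a weak hotspot of Ppp2r2b had 71 in the knockout and 42 in the wild type (1.03, 0.65 to 1.72). A second one of the same gene had 362 in the knockout and 451 in the wild type (-0.05, -0.27 to 0.13). Ppp1r14c, a PP1 inhibitor gene, had 87 in the knockout and 94 in the wild type (0.16 in relative strength, 0.0009 to 0.82). On strength as deposited or as percent of the list it was lower in the knockout. Its reads before subtraction of the background were 107 in the knockout and 97 in the wild type. The strongest knockout body hotspot of the members was in Ppp4r1, with 546 in the knockout and 959 in the wild type (-0.54, -0.66 to -0.36).

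**Figure D5:**
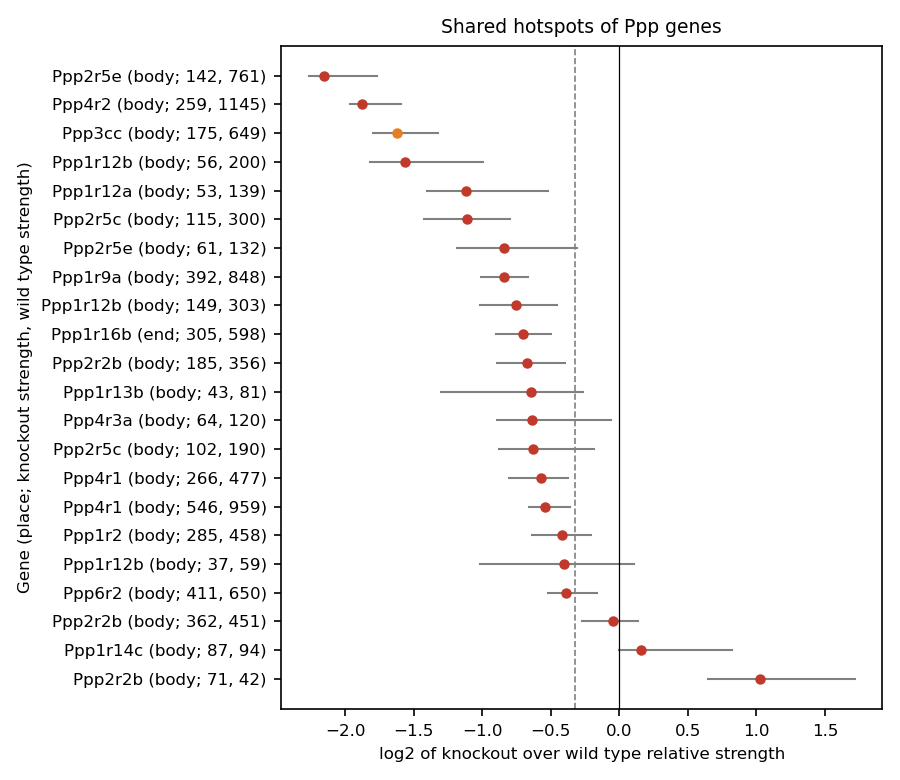
log2 of knockout over wild type relative strength (x axis) of the 22 shared hotspots of Ppp genes (y axis, with knockout and wild type strength; orange catalytic, red regulatory); lines are exact 95% intervals of the read-count ratio, the dashed line is the median of shared hotspots in all gene bodies. Values run from -2.15 in Ppp2r5e to 1.03 in Ppp2r2b, and 20 of 22 lie below 0.

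Of the 77 members, 33 (42.9%) had no hotspot in either list, 2 catalytic and 31 regulatory, beside 56.9% of all protein-coding genes. Their median length was 10 kb, against 23.3 kb for all members. Genes of restricted and of broad use stood on both sides. Without a hotspot were the muscle gene Ppp1r3a and the neuronal inhibitor gene Ppp1r1b (DARPP-32), but also Ppp4c, the PP2A scaffold gene Ppp2r1a and the B56 gene Ppp2r5d. The neurabin gene Ppp1r9a, the glycogen-targeting gene Ppp1r3c and the muscle gene Ppp1r12b, by contrast, had a knockout hotspot at an end. Of the genes that act on eIF2alpha, the stress-induced Ppp1r15a had none and the constitutive Ppp1r15b had a knockout hotspot of 68. These genes were picked after their values were seen. The share with a knockout hotspot at an end was 4 of 20 members under 10 kb, 18 of 37 of 10 to 50 kb (48.6%) and 13 of 20 over 50 kb (65.0%), beside 15.9%, 31.0% and 37.4% of all protein-coding genes of these lengths.

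Other phosphatase genes, listed from knowledge of the pathway, had knockout hotspots at their ends in 32 of 63 cases (50.8%, 37.9 to 63.6) and wild type ones in 2 (3.17%, 0.387 to 11.0). The shares were 27.1% and 1.99% of all protein-coding genes, and 45.5% and 1.30% of the Ppp genes. A knockout share above that of all genes was thus not particular to the Ppp genes. These lists were chosen with earlier results of these data known. Catalytic genes outside the Ppp symbols, mostly of the PPM family, had hotspots at their ends in 11 of 21 genes in the knockout and 2 of 21 in the wild type. Of these Ppm1f had 614 in the knockout and 969 in the wild type, Ppm1a had 305 and Pdp1, which acts on pyruvate dehydrogenase, had 203 in the knockout. PP1-binding proteins had knockout hotspots at their ends in 9 of 15 genes, led by Cdca2 (405), whose product brings PP1 to mitotic chromatin, Shoc2 (342) and Mki67 (232). PP2A regulators had them in 7 of 16, led by the striatin genes Strn3 (290) and Strn (182) and by Ptpa (121). Neither of the shugoshin genes in the list, Sgo1 and Sgo2a, had one. Calcineurin regulators had them in 5 of 11, led by Rcan1 (112), Nfatc3 (81) and Rcan3 (61).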

How the data were processed

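DMC1-SSDS hotspots of testis were analysed from 2 deposited lists, 1 for each genotype. Per the file headers, the authors gave each hotspot a read count, a background signal, a strength, a strength percent and a rank score; the deposited strength equals read count minus background in 100% of hotspots of both lists, and the deposited percent strength sums to 100 within a list. Tools named in the submitters' processing notes were MACS2, BWA, Bowtie2 and CASAVA, with the build mm10 and no versions or roles. The pooling of samples within a genotype and any scaling between lists are not stated in those notes.

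Genes were taken from the RefSeq table of GRCm38.p6, the build that mm10 names, and starts and strands from its promoter table, where 805 of 805 overlapping promoters on opposite strands read as reverse complements. Hotspot centres within 1 kb of a gene end, on either side, counted as at an end. A hotspot was in the body when it lay inside the gene and over 1 kb from both. Lists were paired by an overlap of at least 1 bp. Start positions are used as listed. Intervals are exact at the 95% level (Clopper-Pearson for shares, Poisson for reads) and treat reads as independent, with no molecular identifiers. The interval of the median log2 ratio is taken from the ordered values of the shared hotspots and treats hotspots as independent. Ratios of shared hotspots use strength divided by the median autosomal shared strength of the list; the interval beside a ratio is that of the read counts on the same scale. Assignment and pairing were tested on simulated hotspots. Analyses used Python 3.11.15, pandas 2.3.3, numpy 2.4.6 and scipy 1.17.1.

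No test between genotypes was possible with 1 list each. The members and lists were chosen with earlier results of these data known. Genes named are all catalytic members and those whose end carried a wild type hotspot. Named too are the 20 regulatory members with the strongest knockout hotspot at an end and the 5 with the most body hotspots. Of the shared hotspots, those with the 3 lowest and the 3 highest log2 ratios are named, although only 2 were higher in the knockout. The 3 strongest genes of each pathway list complete the planned set. Others were named after their values were seen. The choices varied were the window, the strength threshold, hotspots shared with another gene, overlap of the gene end, the body definition, the scaling and the overlap for pairing.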

Additional observations from a re-analysis of the deposited data

How the results depend on the processing

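The results come from 1 list per genotype, so leaving out a sample was not possible, and depth limits what is listed: weaker hotspots fall below the lists. No paired analysis was possible because the lists hold no values of single samples. Of 39 alternatives over 8 results, 24 left the result within 1.5 times of its count, or within its interval, 15 moved it and 0 reversed it. A shorter list, a narrower window or a wider body changes the hotspots counted by construction, and no other cause was tested. With each list reduced to its 6740 strongest hotspots, a knockout hotspot lay at an end of 7 members (1 catalytic, 6 regulatory), in the body of 7 in the knockout and of 12 in the wild type, the summed knockout strength at member ends was 1783 in place of 4733, and the median log2 ratio was -0.38. With the knockout list reduced to 13480 hotspots, chosen after seeing the data, 3 catalytic members had an end hotspot, 11 members a body hotspot, and the summed strength was 4164. It was 4234 with a window of 500 bp and 4135 without hotspots at ends of other genes. A wild type hotspot was at the end of 0 members within 500 bp and of 3 within 2 kb. Counted over the whole gene, 31 members had a knockout hotspot inside.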
